A study of Homo sapiens with 12 samples.

Results

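RNA-seq libraries of undifferentiated HL-60/S4 cells treated with TNF-α were compared with libraries of the same cells given vehicle. The members described are the genes that passed an expression filter on these 6 libraries, 16250 of the 58288 genes in the count table, and no measured difference between the groups was used to choose them. HL-60/S4 is an established line of human promyelocytic leukemia cells that grows in suspension and can be driven towards a granulocytic form with all-trans retinoic acid (ATRA). The series holds 12 libraries, 3 in each of 4 groups, and the 6 of interest are the undifferentiated ones: 3 with 16 ng/mL TNF-α for 2 h and 3 with the same volume of water, all in medium with added calcium and with cells grown for 8 passages. The other 6 are cells given ATRA for 4 days and then the same treatments, in an experiment that was run separately. All libraries come from 1 leukemia line, each from a flask of its own. The spread within a group is therefore a spread between flasks, and does not cover separate repeats of the experiment.

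TNF-α is an inflammatory cytokine that binds the receptors TNFR1 and TNFR2 and, through adaptor and ubiquitin ligase complexes, activates the IKK kinases. IKK marks the inhibitory IκB proteins for destruction, which frees dimers of NF-κB transcription factors to enter the nucleus and switch on genes for cytokines, adhesion molecules, survival factors and their own inhibitors. In immature myeloid cells the same signal can promote survival, death or a change of differentiation state.

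Between 26121834 and 31895061 read pairs were counted on genes in the 6 libraries. At that depth 3 counts, taken as the floor of detection, stood at 0.0953 to 0.114 CPM (counts scaled to TMM library sizes). This floor covers counting error only. The markers of the promyelocyte were present: MPO, the peroxidase of azurophil granules, had at least 137814 counts in each library and PRTN3 at least 22709, whereas ELANE, the neutrophil elastase, had only 28 to 58. The summed level of the 9 promyelocyte markers was 8077 to 8702 CPM with vehicle and 6677 to 7569 with TNF-α. In bulk RNA, fewer cells of a type and less RNA per cell cannot be told apart. Of the 8 markers of mature granulocytes, 5 had at most 3 counts in all 6 libraries, among them LTF, MMP8, CEACAM8 and FCGR3B at 0, and the sum of all 8 was 34.0 to 35.2 CPM with vehicle and 33.5 to 38.9 with TNF-α. The T cell markers summed to 6.05 to 7.15 CPM with vehicle and 6.24 to 7.34 with TNF-α, the B cell markers to 5.08 to 5.75 and 3.83 to 4.42, and the erythroid markers, with HBA1 and HBB at 0, to 1.18 to 2.01 and 0.953 to 1.29. Monocyte markers summed to 3.88 to 4.79 CPM with vehicle and 2.95 to 3.99 with TNF-α, with 4 of the 6 at no more than 3 counts in every library, and megakaryocyte markers to 1.69 to 2.05 and 0.866 to 1.40, with PF4 at 0. The 5 endothelial, stromal and epithelial markers summed to 6.39 to 6.90 CPM with vehicle and 5.88 to 6.21 with TNF-α, with CDH5, COL1A2 and EPCAM at 0. Most of that sum was PECAM1, at a mean of 6.67 CPM with vehicle and 5.49 with TNF-α. The part of other cell types in the results was not tested.

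Calls of an increase or a decrease were made at an adjusted p under 0.05, from the quasi-likelihood test of edgeR. TNF-α increased 1324 genes (8.15% of those tested) and decreased 1081 (6.65%), so 14.8% were called in either direction. Increases were the larger changes: 316 of them were at least 2-fold and 63 at least 8-fold, against 86 decreases of at least 2-fold and 0 of at least 8-fold. Most calls were small, with 59.7% of the increases and 73.5% of the decreases under 1.5-fold. The 3 TNF-α libraries lay wholly above the 3 vehicle libraries for 1305 of the increased genes and wholly below for 1055 of the decreased genes. Over all genes tested, 16% lay wholly above and 15.1% wholly below, 31.1% in either direction. With 3 libraries in each group the smallest two-sided p of an exact permutation test is 0.1, and the calls therefore depend on variances shared among genes in edgeR. Leaving out vehicle replicate 2 lowered the decreases to 653, and leaving out TNF-α replicate 2 lowered them to 667. Among the genes described below, VCAM1, EBI3, TNFAIP6, CD40, IL12B, MAML2, CD70, CD274, IL32 and GBP5 had at most 10 counts in each vehicle library and passed the filter only through the TNF-α libraries, so they had to differ and their values are descriptions. The same held in reverse for CCR2, with at most 7 counts in each TNF-α library. MMP2-AS1, SLC2A6 and CXCL10 did not reach 10 counts in every vehicle library and also needed the TNF-α libraries to pass. Their values are likewise descriptions. Counts of increased list members below include such genes. A gene near the floor with vehicle passes the filter only if it is higher with TNF-α, so those shares are partly set by the filter.

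**Figure D1:**
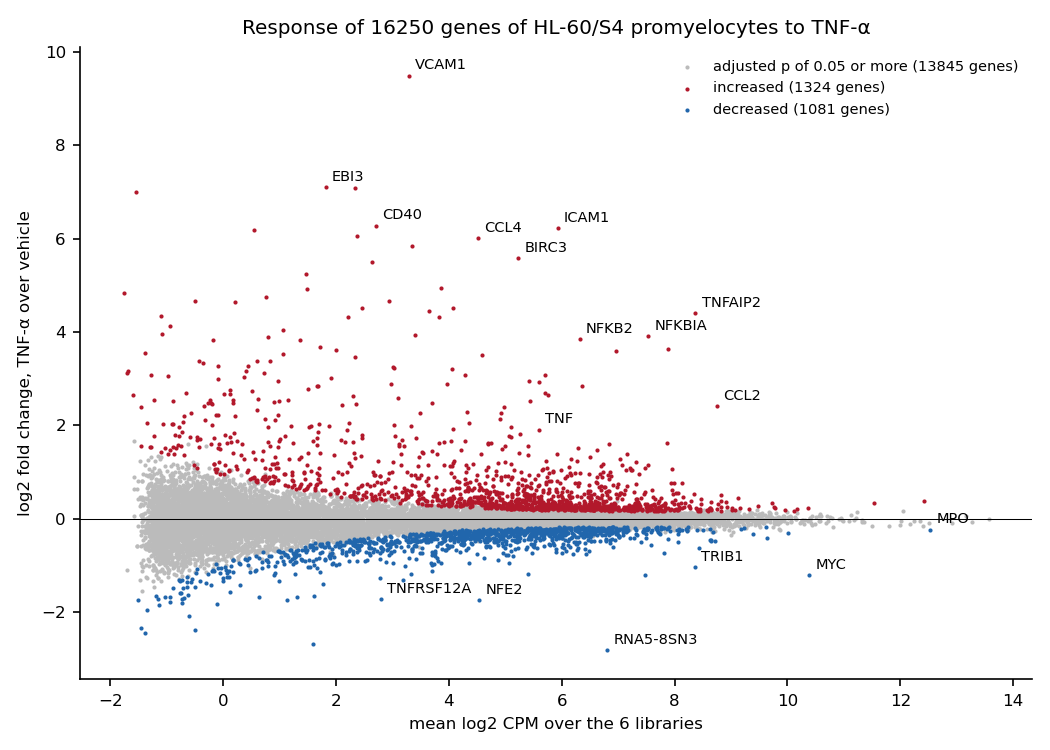
Each point is 1 of the 16250 genes, with its mean log2 CPM over the 6 libraries on the horizontal axis and its log2 fold change of TNF-α over vehicle on the vertical axis. Red points are the 1324 increased and blue points the 1081 decreased genes, and the increases reach further from 0 than the decreases.

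The calls also followed base composition. Genes were split into 5 equal bins of GC content. In the lowest bin (21.1% to 40.8%), 13.1% were increased and 1.66% decreased, and in the highest (56.8% to 83.9%), 5.91% were increased and 12.5% decreased. For each library, log2 deviations from the gene's mean over the libraries were regressed on GC content, among genes with a mean log2 CPM above 1. The slope per 10 percentage points ran from -0.00494 to 0.0683 in the vehicle libraries and from -0.103 to 0.0299 in the TNF-α libraries. After removal, library by library, of the trends on GC content and length, 8.55% of the lowest bin were increased and 5.84% decreased, and 9.82% and 9.60% of the highest. Of the 2405 calls, 2076 were also made in that fit, which made 2619 in all. Where removing the trends ended the call of a gene described below, that value is given. Members named as not called were picked for their known roles, after their values had been seen.

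NF-κB subunits and their inhibitors were among the genes that rose together. Of the 5 subunit genes, 4 were increased and 0 decreased (median log2 fold change 1.38, against -0.01 over all genes tested). NFKB2, which encodes the p100 precursor of the p52 subunit (chromosome 10, 102394110 to 102402529 in hg38), was measured at 10.9, 10.1 and 10.1 CPM with vehicle and at 145, 140.4 and 162 CPM with TNF-α. All TNF-α libraries lay far above all vehicle libraries, and the log2 fold change was 3.85 (standard error 0.0769, adjusted p = 2.68e-18). RELB, the partner of p52 in the noncanonical pathway, rose from 9.73 ± 0.724 to 75.5 ± 4.91 CPM (SD, n = 3 in each group, as in all values of this form), with a log2 fold change of 2.96. NFKB1, the gene of p105 and p50, rose from 78.9 ± 2.91 to 205 ± 16.0 CPM and REL from 47.2 ± 2.37 to 86.3 ± 4.87 CPM. RELA, which encodes the p65 subunit that carries most of the canonical signal, was not called (log2 fold change -0.03).

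The IκB family showed the same direction, with 5 of 6 members increased. NFKBIA encodes IκBα, the inhibitor that is resynthesized after each round of NF-κB activation (chromosome 14, 35401511 to 35404749). It stood at 23.8, 23.6 and 22.1 CPM with vehicle and at 348, 347 and 350.3 CPM with TNF-α (log2 fold change 3.91, standard error 0.0640, adjusted p = 1.75e-19). BCL3, a nuclear IκB protein that works with p50 and p52 dimers, rose from 3.82 ± 0.166 to 43.9 ± 4.89 CPM (log2 fold change 3.52). NFKBIE rose from 40.4 ± 1.20 to 115 ± 2.12 CPM, NFKBID from 19.6 ± 1.47 to 37.4 ± 2.17 and NFKBIB from 40.0 ± 1.76 to 55.1 ± 4.08. NFKBIZ was at 0.128, 0.110 and 0.416 CPM with vehicle and at 0.380, 0.180 and 0.572 CPM with TNF-α, with overlapping groups, and was not called.

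A second layer of inhibition, the enzymes that edit ubiquitin chains on the receptor complex and their partner proteins, had 6 of 10 tested members increased and 0 decreased. TNFAIP3 encodes A20, which removes activating ubiquitin chains (chromosome 6, 137867188 to 137883312), and its values were 34.7, 35.6 and 35.2 CPM with vehicle and 449, 419 and 437 CPM with TNF-α. The groups did not overlap and the log2 fold change was 3.63 (standard error 0.0624, adjusted p = 3.03e-19). ZC3H12A, an RNase that degrades inflammatory transcripts, rose from 13.9 ± 2.18 to 54.6 ± 1.58 CPM. CYLD, a deubiquitinase, rose from 56.6 ± 2.07 to 171 ± 5.68 CPM, and the A20 partner TNIP1 rose from 96.3 ± 2.62 to 160 ± 11.2. For OTULIN, TAX1BP1, ITCH and TNIP2 the log2 fold changes were -0.06, 0.10, 0.15 and 0.16 and none was called.

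**Figure D2:**
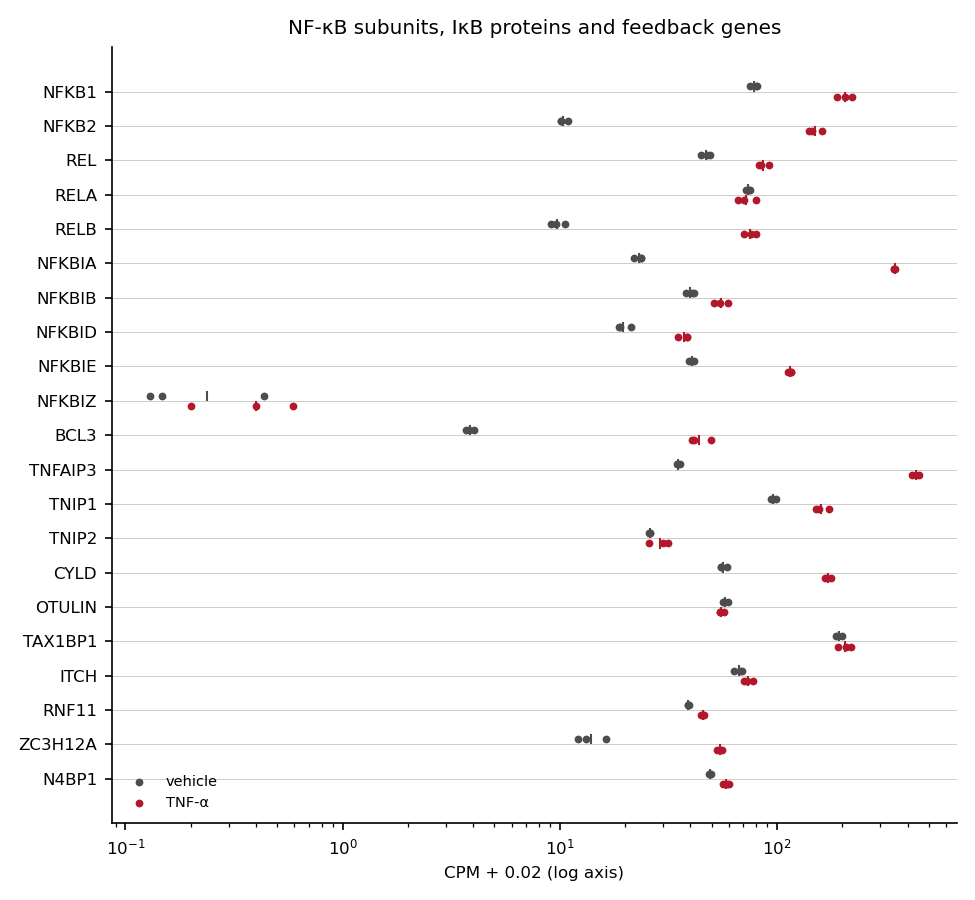
CPM plus 0.02 on a log axis for the NF-κB subunits, IκB proteins and feedback genes, with 1 point per library (vehicle grey, TNF-α red) and a bar at each group's mean. NFKB2, RELB, NFKBIA, BCL3 and TNFAIP3 moved furthest, and the groups of RELA overlapped.

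Promoters of the NF-κB subunit and IκB genes and of the 12 largest increases were searched for the κB consensus, the 10-base sequence that NF-κB dimers bind. The window was the 250 bases upstream of each RefSeq start (GRCh38.p14), read on both strands. Of the 23 genes asked for, 19 had a promoter in the table and 9 held a match, 2 of the 10 largest increases with a promoter and 7 of the 9 subunit and IκB genes with one. Over all tested genes with a promoter, 5.95% of promoters held a match. The share was 11.2% for increased genes, 17% for those increased at least 2-fold, 5.84% for decreased genes and 5.30% for genes not called. The TATA box (TATAAA) was in 6.25% of tested promoters and in 14.2% of those of genes increased at least 2-fold. The AP-1 site (TGANTCA) was in 4.20% and 9.69%, and in 10.1% (7 of 69) of the promoters of genes decreased at least 2-fold. These shares are descriptions, and a gene can have several promoters in the table. Windows of 30 bases around 6 of the matches are shown on the strand of the gene, with the matched κB letters in capitals.
VCAM1: tccccttgaaGGGATTTCCCtccgcctctg
BIRC3: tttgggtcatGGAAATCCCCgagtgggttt
NFKBIA: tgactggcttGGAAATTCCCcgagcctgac
NFKB1: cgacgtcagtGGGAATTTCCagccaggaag
NFKB2: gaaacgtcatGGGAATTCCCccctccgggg
REL: cgtcagccgcGGGAAATTCCcctcccgcca
The VCAM1 window is at chr1:100719670-100719699 on the plus strand and its match ends 52 bases before the start site. The BIRC3 window is at chr11:102317275-102317304 (plus, 189 bases before) and the NFKBIA window at chr14:35404811-35404840 (minus, 71 bases before), and all 3 lie outside the span annotated for their gene. The windows of NFKB1 (chr4:102501300-102501329, 39 bases before the start), NFKB2 (chr10:102394461-102394490, 97 bases) and REL (chr2:60881517-60881546, 37 bases), all on the plus strand, lie before 1 start site but inside the gene's full span, which begins at an earlier start. ICAM1 and IL12B were searched and had no match in this window.

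The receptor complex itself changed in both directions, with 5 of 18 tested members increased and 4 decreased (2 without vehicle replicate 1, TNF-α replicate 1 or TNF-α replicate 2). BIRC3, the cIAP2 ubiquitin ligase that is recruited to TNFR1 and protects against death (chromosome 11, 102317450 to 102339403), was at 1.76, 1.36 and 1.46 CPM with vehicle and at 76.8, 74.0 and 69.8 CPM with TNF-α (log2 fold change 5.58, standard error 0.101, adjusted p = 4.77e-19). TRAF1, an adaptor of the complex, rose from 1.42 ± 0.690 to 32.4 ± 4.44 CPM. TRAF3, which restrains the noncanonical kinase, rose by 0.77 on the log2 scale. Both receptors fell: TNFRSF1A (TNFR1) was at 132, 129 and 124 CPM with vehicle and at 88.1, 89.6 and 98.1 with TNF-α (log2 fold change -0.48, adjusted p = 6.61e-06), and TNFRSF1B (TNFR2) went from 42.9 ± 3.88 to 31.3 ± 2.41 CPM (log2 fold change -0.46, adjusted p = 0.000298). The proximal adaptors TRADD, FADD, RIPK1 and TRAF2 were not called. Among the IKK and related kinases and their adaptors 4 of 10 were increased, led by the adaptor TANK (log2 fold change 1.24) and the kinase IKBKE (1.14). The adaptor TBKBP1 fell by 0.59.

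Of 10 tested TNF superfamily ligands 6 were increased. TNF itself stood at 20.8, 20.3 and 19.5 CPM with vehicle and at 76.1, 77.9 and 74.2 CPM with TNF-α, so the transcript of the added cytokine was higher in every treated library. CD70 had 2 to 3 counts in each vehicle library and 52 to 68 in each TNF-α library, a ratio of summed counts of 26.3 (exact 95% counting interval 12.5 to 66.3). LTB rose from 0.629 ± 0.215 to 3.67 ± 0.745 CPM, TNFSF9 (4-1BB ligand) from 2.14 ± 0.318 to 6.72 ± 0.277, and the death ligand TNFSF10 (TRAIL) from 12.7 ± 0.610 to 38.7 ± 1.11. TNFSF14 fell by 0.62 on the log2 scale. Of 15 receptors of the superfamily 5 were increased and 3 decreased (1 without vehicle replicate 2). CD40, the costimulatory receptor (chromosome 20, 46118272 to 46129863), was at 0.128, 0.0733 and 0.278 CPM with vehicle and at 12.3, 12 and 14 CPM with TNF-α (log2 fold change 6.28). TNFRSF9 rose from 0.580 ± 0.179 to 14.7 ± 1.23 CPM and the death receptor FAS from 10.5 ± 0.437 to 50.4 ± 2.95. TNFRSF12A, the receptor of TWEAK, went the other way, at 10.6, 11.4 and 9.68 CPM with vehicle and at 2.40, 3.36 and 3.75 CPM with TNF-α (log2 fold change -1.72, standard error 0.149, adjusted p = 3.39e-08).

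Chemokines, the secreted attractants of leukocytes, had 10 of 14 tested members increased and 0 decreased, with a median log2 fold change of 3.14. A further 13 chemokines in the table were under the filter, with at most 27 counts in any library. CXCL10, among the 10, needed the TNF-α libraries to pass it. CCL4 (chromosome 17, 36103590 to 36105621) was at 0.863, 0.806 and 0.416 CPM with vehicle and at 43.3, 48.2 and 44.2 CPM with TNF-α (log2 fold change 6.01). CCL3, CCL4, CCL3L3 and CCL4L2 are near-identical copies in pairs, and reads could be split or lost between them in counting. CCL1, a ligand of CCR8, rose from 0.920 ± 0.105 to 28.2 ± 1.51 CPM. The ligand of CCR6, CCL20, rose from 1.35 ± 0.152 to 26.9 ± 3.94 CPM, and CXCL10, which attracts activated T cells, from 0.222 ± 0.165 to 3.86 ± 0.295. The next pair was picked after their values had been seen. CCL2, which attracts monocytes, stood at 136, 139 and 137 CPM with vehicle and at 734, 737 and 715 CPM with TNF-α, and CXCL8, which attracts neutrophils, rose from 19.0 ± 1.58 to 229 ± 10.9 CPM (log2 fold change 3.60).

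Cytokines outside the chemokine family had 8 of 17 tested members increased and 0 decreased, with 16 more under the filter. The 8 include EBI3, IL12B and IL32, which passed only through the TNF-α libraries, so the share is partly set by the filter. EBI3, a subunit shared by IL-27 and IL-35, had 0 to 3 counts in each vehicle library and 186 to 217 in each TNF-α library, a ratio of 151 (exact 95% counting interval 58.7 to 556). IL12B, the p40 subunit of IL-12 and IL-23 (chromosome 5, 159314783 to 159330887), was at 0.192, 0.0733 and 0.173 CPM with vehicle and at 10.5, 11 and 8.99 CPM with TNF-α. IL1A rose from 0.430 ± 0.0980 to 8.82 ± 1.20 CPM and IL1B from 14.8 ± 1.52 to 93.3 ± 2.80. The partner chain IL23A was not called (log2 fold change 0.51). CSF1, the growth factor of macrophages, and the cytokine IL32 rose too (log2 fold changes 2.84 and 3.37), while IL18, TGFB1, OSM and AREG were not called.

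Adhesion molecules held the largest fold change among all genes tested. VCAM1, which binds integrins on leukocytes (chromosome 1, 100719742 to 100739045), had 0 to 2 counts in each vehicle library and 507 to 593 in each TNF-α library. The ratio of summed counts was 855, with an exact 95% counting interval of 236 to 7063. ICAM1, a ligand of the β2 integrins (chromosome 19, 10270835 to 10286615), was at 1.28, 1.58 and 1.98 CPM with vehicle and at 126, 109.9 and 124 CPM with TNF-α (log2 fold change 6.22, standard error 0.109, adjusted p = 3.36e-19). Of the 22 members tested 8 were increased and 4 decreased, and the median log2 fold change was 0.03. The decreased ones were the selectin ligand and integrin chains of the leukocyte. SELPLG (PSGL-1) went from 12.4 ± 0.659 to 6.19 ± 0.305 CPM, ITGAL from 15.7 ± 0.600 to 11.6 ± 0.809, ITGA5 from 127 ± 4.00 to 100.1 ± 4.53, and ITGA4 from 428 ± 18.6 to 367 ± 17.6. The β2 chain ITGB2 and the integrin ITGAM were not called.

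Activation and costimulatory markers had 7 of 10 tested members increased. CD40 and CD274 among them passed the filter only through the TNF-α libraries, so the share is partly set by the filter. CD69, an early activation antigen, rose from 11 ± 0.552 to 93.2 ± 5.13 CPM (log2 fold change 3.07), and CD83 from 12.7 ± 1.80 to 73.5 ± 0.579. CD274 (PD-L1) had 1 to 3 counts in each vehicle library and 13 to 24 in each TNF-α library, a ratio of 9.03 (exact 95% counting interval 3.89 to 25.7). CD86, a ligand of CD28, fell from 5.72 ± 0.548 to 3.64 ± 0.278 CPM. Others among the 12 largest increases lie outside the lists described so far. TNFAIP6, a hyaluronan-binding secreted protein, was at 0.0320, 0.0366 and 0.139 CPM with vehicle and at 11.2, 10.9 and 7.88 with TNF-α. SLC2A6, a hexose transporter of the lysosome, rose from 0.340 ± 0.0797 to 20 ± 1.17 CPM, and MAML2, a coactivator of Notch targets, from 0.137 ± 0.0601 to 5.36 ± 0.768. TNFAIP2, chosen after its values had been seen, stood at 30.1, 29.6 and 29.7 CPM with vehicle and at 618, 595 and 677 with TNF-α.

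**Figure D3:**
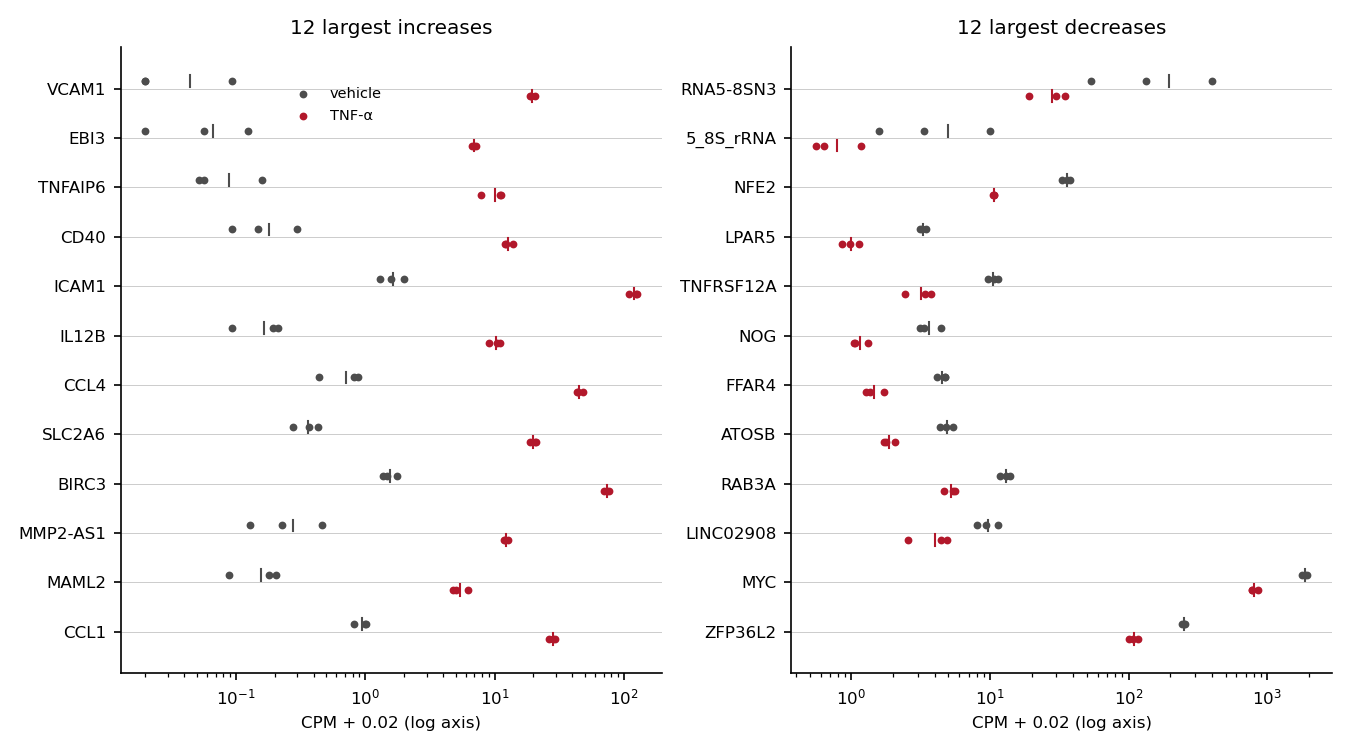
CPM plus 0.02 on a log axis for the 12 largest increases and 12 largest decreases among called genes without overlap of the groups and with a mean log2 CPM no lower than 1, with 1 point per library and a bar at each group's mean. VCAM1 and EBI3 rise from the floor of detection, and MYC falls from 1866 to 805 CPM.

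Survival genes and cell death genes both held increased members. Among 14 survival genes tested 9 were increased and 1 decreased. BCL2A1, an antiapoptotic BCL2 relative, rose from 3.95 ± 1.03 to 22.0 ± 0.671 CPM. CFLAR, which encodes the caspase-8 inhibitor c-FLIP, was at 88.8, 98.9 and 101 CPM with vehicle and at 235, 216 and 218 CPM with TNF-α. BCL2L1 rose by 0.62 and BCL2 fell by 0.27 on the log2 scale, and XIAP and MCL1 were not called. Among 24 cell death genes 7 were increased, 1 was decreased (0 without TNF-α replicate 2) and 16 were not called, with a median log2 fold change of 0.07. Those that rose furthest were the BH3-only genes BBC3 (PUMA), from 0.591 ± 0.102 to 2.62 ± 0.402 CPM, BMF, from 6.26 ± 1.01 to 15.7 ± 1.63, and BCL2L11 (BIM), from 119 ± 3.33 to 198 ± 13.9. CASP8, RIPK3 and MLKL were not called. In the list of p53 targets 5 of 19 rose and 3 fell (1 without vehicle replicate 2 or TNF-α replicate 2), the risers including BTG2 (log2 fold change 2.28) and FAS, while MDM2 (0.07) and CDKN1A (0.75) were not called.

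Immediate-early genes and signalling brakes followed a mixed pattern. Of 23 immediate-early genes tested 9 were increased and 2 decreased. IER3 rose from 1.28 ± 0.0618 to 19.8 ± 1.15 CPM and IER5 from 21.4 ± 2.40 to 62.7 ± 4.23. EGR1 fell from 4.08 ± 0.621 to 2.29 ± 0.386 CPM, and MCL1, IER2 and NR4A1 were not called. In the AP-1 family JUNB rose from 50.6 ± 7.86 to 99.7 ± 14 CPM, JUN from 9.49 ± 1.26 to 17.6 ± 0.930 and JUND from 17.2 ± 2.77 to 28.9 ± 2.19. FOSL2 was at 59.6, 60.3 and 55.4 CPM with vehicle and at 27.1, 23.3 and 27.3 with TNF-α (log2 fold change -1.17), and FOS was not called (-0.66). The AP-1 list as a whole had 3 of 16 increased and 3 decreased, 7 and 2 with the GC and length trends removed, and 5 increased without TNF-α replicate 1. The MAPK phosphatases split, with DUSP4 (4.13 ± 0.951 to 34.7 ± 0.718 CPM), DUSP16, DUSP2 and DUSP10 increased and the ERK phosphatases DUSP5, DUSP6 and DUSP7 decreased. Among RNA decay factors ZFP36 (tristetraprolin) rose by 0.76 on the log2 scale while its relative ZFP36L2 was at 249.6, 256 and 241 CPM with vehicle and at 101, 107 and 117 with TNF-α (log2 fold change -1.20, standard error 0.0630, adjusted p = 1.55e-11).

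Interferon-stimulated genes were mostly not called, with 7 of 32 increased and 1 decreased (0 without vehicle replicate 3 or TNF-α replicate 1, 2 without TNF-α replicate 3). Among the risers were GBP5 (0.228 ± 0.0473 to 1.31 ± 0.228 CPM), GBP2, the RNA sensor IFIH1 (13.2 ± 1.13 to 34.5 ± 2.19), OAS3 and XAF1. ISG15, MX1, IFIT1 and IFIT3, classical targets of the interferon pathway, were not called (log2 fold changes -0.13, -0.36, 0.34 and 0.17). SOCS1, the feedback inhibitor of JAK kinases, was at 0.639, 1.03 and 0.624 CPM with vehicle and at 4.22, 5.52 and 6.48 with TNF-α, and STAT5A rose from 10.5 ± 1.26 to 22.9 ± 0.584 CPM. IRF1 was not called (0.13) and IRF5 fell by 0.90 on the log2 scale. Antigen presentation by MHC class I had 5 of 19 increased, led by the peptide transporter TAP1 (8.69 ± 0.390 to 15.9 ± 1.63 CPM), with HLA-B at a log2 fold change of 0.43, and the regulator NLRC5 decreased. HLA-B shares long stretches of sequence with other class I genes, so its count is uncertain. Innate sensors and adaptors had 7 of 19 increased, among them TLR2 (17.7 ± 0.849 to 40.8 ± 1.71 CPM), MYD88, NLRP3 and IRAK2, and 3 decreased.

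The transcription factors of myeloid and progenitor identity leaned towards lower levels. Of 29 tested, 14 were decreased and 3 increased, and the median log2 fold change was -0.36. CEBPA, which drives entry into the granulocytic lineage, was at 460.1, 402 and 404 CPM with vehicle and at 261, 272 and 284 with TNF-α (log2 fold change -0.63, standard error 0.0633, adjusted p = 3.27e-07). RUNX1 went from 227 ± 11.2 to 154 ± 10.6 CPM, GATA2 from 72.7 ± 8.13 to 46.5 ± 5.95 and HHEX from 53.8 ± 3.71 to 35.8 ± 0.328. BCL6 had the steepest fall among the members called, from 4.41 ± 0.551 to 2.02 ± 0.50 CPM. MYB, CEBPE, IKZF1 and GFI1, chosen after their values had been seen, fell by 0.46, 0.46, 0.51 and 0.29 on the log2 scale. SPI1 (PU.1), RUNX3 and ETV6 rose (log2 fold changes 0.25, 0.25 and 0.32), and the SPI1 groups overlapped. CEBPB and CEBPD were not called. With the GC and length trends removed the list had 16 decreased and 4 increased.

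MYC, the amplified oncogene of this line and the gene of highest CPM among large decreases, stood at 1949.5, 1875 and 1772 CPM with vehicle and at 778, 771 and 865 CPM with TNF-α. The log2 fold change was -1.21 (standard error 0.0631, adjusted p = 1.37e-11), and the groups lay far apart. Its antagonist MNT also fell, from 31.5 ± 2.02 to 20.9 ± 0.696 CPM, and 4 of the 10 MYC network genes tested were decreased and 0 increased. The partner MAX was not called. Genes of ribosome biogenesis, many of them classical MYC targets, had 2 of 26 increased (0 without vehicle replicate 2, 1 without TNF-α replicate 2) and 0 decreased. The increased share was 7.69%, near the 8.15% over all genes tested, of which 6.65% were decreased. TRIB1, an adaptor for the degradation of C/EBPα and chosen after its values had been seen, went from 443 ± 27.3 to 216 ± 14.5 CPM.

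Other large decreases were spread over many functions. NFE2, a bZIP factor of the erythroid and megakaryocytic lineages (chromosome 12, 54292111 to 54301121), was at 37.8, 33.2 and 36.0 CPM with vehicle and at 10.5, 10.7 and 10.7 with TNF-α (log2 fold change -1.74, standard error 0.0817, adjusted p = 2.77e-12). LPAR5, a lysophosphatidic acid receptor, went from 3.24 ± 0.148 to 0.969 ± 0.142 CPM, and FFAR4, a receptor of long-chain fatty acids, from 4.51 ± 0.326 to 1.43 ± 0.235. NOG, which encodes the BMP antagonist noggin, fell from 3.63 ± 0.709 to 1.13 ± 0.154 CPM. RAB3A, a GTPase of regulated secretion, fell from 12.9 ± 1.15 to 5.19 ± 0.516, and ATOSB from 4.83 ± 0.492 to 1.83 ± 0.193. Another pair among the 12 were 5.8S ribosomal RNA genes, RNA5-8SN3 and the copy 5_8S_rRNA, both on chromosome 21 (8395607 to 8395759 and 8256781 to 8256933), in libraries from which ribosomal RNA had been removed. RNA5-8SN3 was at 399, 134 and 53.8 CPM with vehicle and at 34.6, 19.1 and 29.7 with TNF-α, so the vehicle libraries differed among themselves by more than the nearest libraries of the 2 groups. These copies are near-identical and their counts are uncertain.

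Of 15 azurophil granule proteins tested, which are made at the promyelocyte stage, 3 were decreased and 1 increased, all by less than 1.5-fold. Without vehicle replicate 1, vehicle replicate 2 or TNF-α replicate 2 only 1 was decreased, and without vehicle replicate 2 or 3 or TNF-α replicate 1 or 2 none was increased. MPO was at 6637, 6308 and 6188 CPM with vehicle and at 5240, 5163 and 5875 with TNF-α (log2 fold change -0.23, adjusted p = 0.0155), PRTN3 went from 1144 ± 76.3 to 929 ± 108 CPM and CTSG from 62.0 ± 3.64 to 51.9 ± 7.14. The granule proteoglycan SRGN rose by 0.19 and was no longer called with the GC and length trends removed (adjusted p = 0.393). Of the 12 specific and gelatinase granule genes only 3 passed the filter, 2 of which rose: MMP9, the gelatinase, from 2.43 ± 0.194 to 14.7 ± 1.94 CPM, and CYBB, from 112 ± 3.36 to 218 ± 11.8. CYBB encodes the catalytic subunit of the phagocyte NADPH oxidase, and NCF1, its p47 organizer, rose from 10.0 ± 0.437 to 23.8 ± 1.36 CPM. The other 5 oxidase genes were not called. NCF1 has near-identical pseudogenes, which makes its count uncertain.

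Receptors changed in both directions. Of 28 receptors for chemoattractants and lipid mediators 10 were increased and 5 decreased. PTAFR, the receptor of platelet-activating factor, rose from 1.56 ± 0.205 to 14.8 ± 2.27 CPM, C3AR1, the receptor of complement C3a, from 10.0 ± 1.95 to 52.7 ± 2.75, and CXCR4, the receptor that holds myeloid cells in the marrow, from 19.1 ± 2.59 to 44.8 ± 2.83. CXCR2, the receptor of CXCL8, fell from 10.5 ± 1.21 to 5.46 ± 0.531 CPM, and the chemokine receptors CCR1 (6.64 ± 0.828 to 3.58 ± 0.250) and CCR2 (0.960 ± 0.219 to 0.224 ± 0.0384) fell too. Among 27 receptors of hematopoietic cytokines 12 were increased and 4 decreased. IL18R1 was at 15.9, 19.5 and 15.3 CPM with vehicle and at 59.8, 60.5 and 58.2 with TNF-α, and its partner IL18RAP rose from 3.22 ± 0.321 to 13 ± 0.659. CSF2RB, the shared β chain of the GM-CSF, IL-3 and IL-5 receptors, rose from 37.1 ± 1.79 to 72.7 ± 2.55 CPM. KIT, the stem cell factor receptor, fell from 4.17 ± 0.728 to 2.0 ± 0.313, and EPOR, IL6R and CSF3R fell by 0.90, 0.63 and 0.45 on the log2 scale.

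Lists of growth and metabolism held mostly small changes. DNA replication had 2 of 40 genes increased and 1 decreased (1 and 0 without vehicle replicate 1 or TNF-α replicate 2, 1 and 1 without vehicle replicate 2, 0 decreased without TNF-α replicate 1 and 3 without TNF-α replicate 3), and glycolysis 1 of 22, which was SLC2A6. Mitotic genes had 6 of 40 increased and 3 decreased, all under 1.5-fold, for example CENPE (183 ± 11.2 to 232 ± 11.9 CPM) and CDC20 (189 ± 16.6 to 163 ± 9.03). Without vehicle replicate 2 or TNF-α replicate 2 that list had 1 increased and 0 decreased, without vehicle replicate 1 it had 3 and 0, and without TNF-α replicate 1 it had 2 and 1. With the GC and length trends removed it had 2 increased and 1 decreased, and CDC20 was no longer called (adjusted p = 0.0597). In the list of G1 regulators the changes were larger: CCND1 (cyclin D1) was at 87.4, 82.3 and 78.4 CPM with vehicle and at 185, 179 and 191 with TNF-α, the CDK4 inhibitor CDKN2B rose from 1.55 ± 0.242 to 8.56 ± 0.370 CPM, and CCND3 fell from 89.0 ± 7.54 to 62.9 ± 5.82. Cytosolic ribosomal protein genes had 3 of 81 increased (0 without vehicle replicate 1, 1 without vehicle replicate 2, TNF-α replicate 1 or TNF-α replicate 2), mitochondrial ribosomal protein genes 0 of 78 increased and 1 decreased (0 to 2 in fits without 1 library), and nuclear-encoded respiratory chain genes 1 of 80 in each direction (0 to 2 increased and 0 to 4 decreased). Of the 13 transcripts of the mitochondrial genome 3 were decreased, MT-ATP8 (488 ± 12.9 to 350.1 ± 19.7 CPM), MT-ND3 (906 ± 91.7 to 686 ± 37.0) and MT-ND4L (748 ± 18.7 to 597 ± 50.2). Cholesterol and fatty acid synthesis had 2 of 27 increased and 3 decreased (1 and 1 without TNF-α replicate 2, 5 decreased without TNF-α replicate 3, 1 increased without vehicle replicate 1, vehicle replicate 2 or TNF-α replicate 1), among them STARD4, a sterol carrier, which rose by 0.89, and SCD, the stearoyl-CoA desaturase, which went from 839 ± 31.3 to 739 ± 31.4 CPM. The unfolded protein response had 2 of 22 increased and 3 decreased, against 0 and 1 without vehicle replicate 2 or TNF-α replicate 2, 0 increased without vehicle replicate 3 or TNF-α replicate 3, and 1 decreased without TNF-α replicate 1. Heat shock genes had 3 of 14 increased, 1 without vehicle replicate 3 and 5 without TNF-α replicate 1. Proteasome subunits had 3 of 34 increased, 0 without vehicle replicate 2 or TNF-α replicate 2, 1 without vehicle replicate 1 and 8 without TNF-α replicate 3. Replication-dependent histones had 1 of 47 increased, 0 to 3 in fits without 1 library. C2H2 zinc finger genes, a family with a median GC content of 44.5% against 47.7% over all genes, had 19 of 368 increased and 26 decreased (12 and 16 without vehicle replicate 1, 9 and 15 without vehicle replicate 2, 10 and 15 without TNF-α replicate 2). In the oxidative stress list NFE2L2 (NRF2) rose from 70.7 ± 1.31 to 142 ± 3.30 CPM and the cystine transporter SLC7A11 from 23.2 ± 1.45 to 48.2 ± 4.66, and the other 21 tested were not called. The locus at the position of SOD2 had no symbol, was therefore outside this list, and is described at the end.

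**Figure D4:**
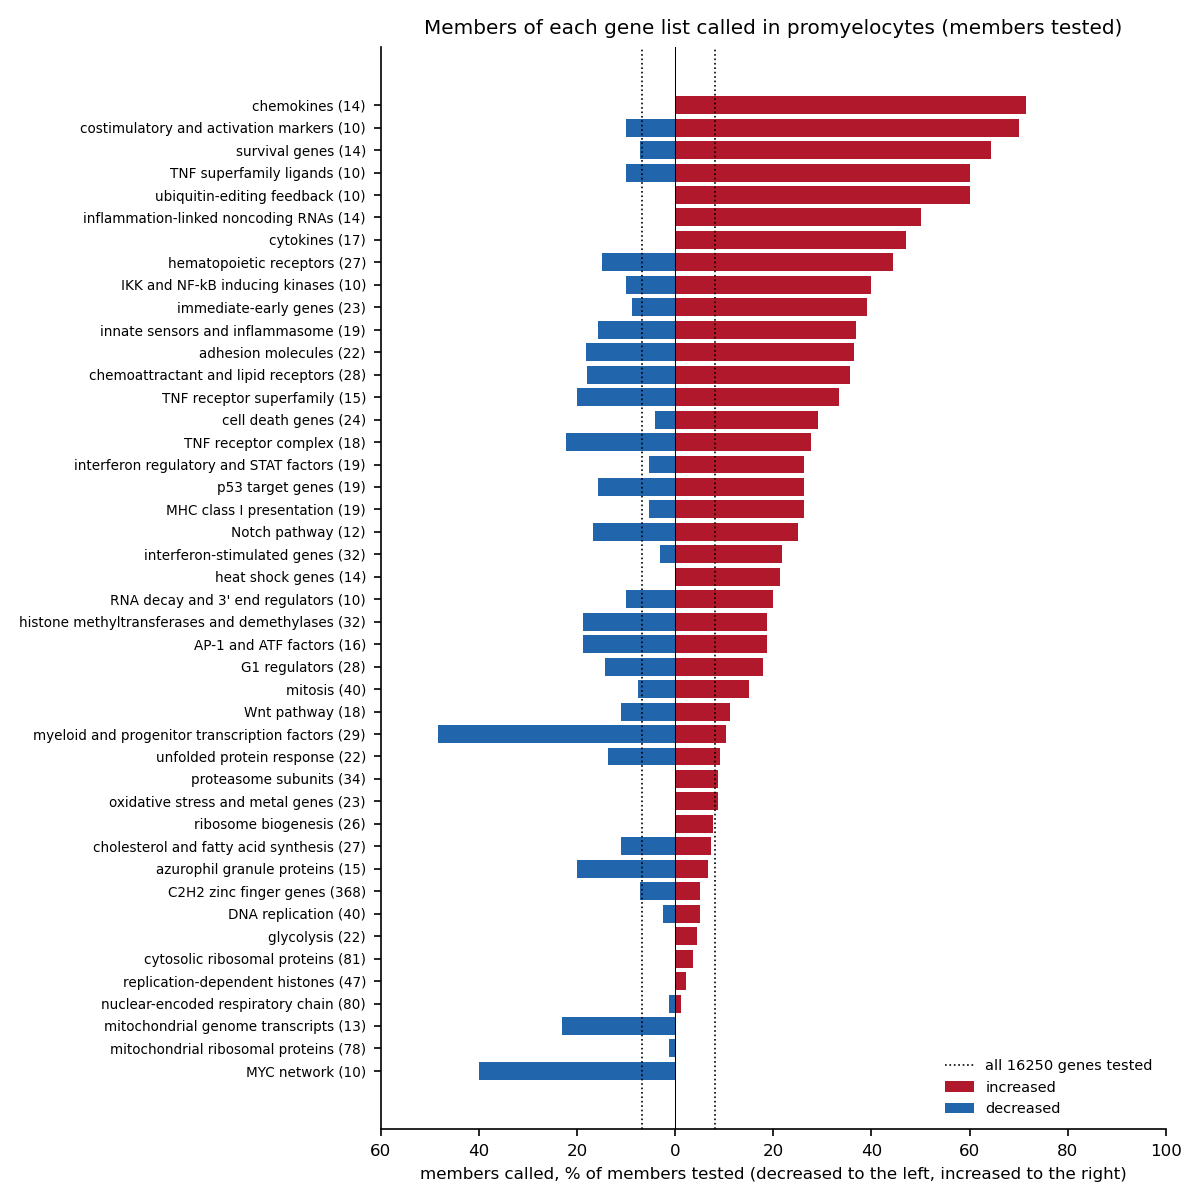
Share of tested members called increased (red, to the right) and decreased (blue, to the left) for each list with at least 10 members tested, with the number tested in brackets. Dotted lines mark the shares over all 16250 genes, 8.15% and 6.65%, and the myeloid transcription factors and the MYC network are the lists with the longest bars to the left. Genes that passed the filter only through the TNF-α libraries are included.

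The abundant increased transcripts were small changes in high counts. MALAT1, a nuclear long noncoding RNA, was at 4053, 4843 and 5494 CPM with vehicle and at 6109, 6557 and 5937 with TNF-α (log2 fold change 0.37). The chaperone HSPA8 went from 2637 ± 328 to 3316 ± 320 CPM, and the histone gene H3C14, which has near-identical copies, from 1218 ± 82.4 to 1432 ± 59.3. NAP1L1 and the actin-bundling LCP1 rose by 0.21 and 0.18 on the log2 scale. NAP1L1 was no longer called with the GC and length trends removed (adjusted p = 0.129).

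The noncoding genes named here were the 5 largest changes in each direction, taken only from called genes whose groups did not overlap. MMP2-AS1, antisense to MMP2 and counted on its own strand (chromosome 16, 55426797 to 55462297), was at 0.447, 0.110 and 0.208 CPM with vehicle and at 11.7, 12.8 and 12 with TNF-α, a log2 fold change of 5.51. MIR3142HG, the host gene of miR-146a and miR-3142, rose from 1.10 ± 0.379 to 24.1 ± 2.35 CPM. ENSG00000249738, a long noncoding RNA that spans IL12B on the other strand (chromosome 5, 159310745 to 159805536), was at 1.31, 2.27 and 1.01 CPM with vehicle and at 17.6, 13.5 and 12.6 with TNF-α. TTN-AS1 rose from 3.71 ± 0.498 to 12.7 ± 1.15 CPM and PRKAR1B-AS1 from 2.52 ± 0.249 to 8.40 ± 0.289. LINC02908 and FAM201A fell, from 9.58 ± 1.63 to 3.96 ± 1.24 CPM and from 4.99 ± 0.428 to 2.58 ± 0.360, as did the locus ENSG00000204282.4, which had no symbol, from 2.89 ± 0.246 to 1.53 ± 0.0362. Of all lncRNA genes tested 4.48% were increased and 2.78% decreased, against 9.90% and 8.61% of protein-coding genes.

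The response was then set beside that of granulocytic HL-60/S4 cells, through the interaction of cell form and treatment in a fit of all 12 libraries. The forms belong to separate experiments, so a difference between the forms and a difference between the experiments cannot be told apart. Of the 2405 genes changed in promyelocytes, 1138 (47.3%) had an interaction past the threshold, against 24% of all genes in that fit and 22.4% of the genes not changed in promyelocytes. The promyelocyte values behind the calls also enter the interaction, so these shares are descriptions. Among the 654 increased genes with an interaction, the rise was larger in granulocytes for 412, and among the 484 decreased genes the promyelocyte value was the lower of the pair for 288. ICAM1 had a log2 fold change of 6.22 in promyelocytes and 2.41 in granulocytes (interaction adjusted p = 6.40e-17). BIRC3 rose less in promyelocytes, with 5.58 against 8.31. MYC had -1.21 in promyelocytes and -0.07 in granulocytes (interaction adjusted p = 2.05e-10). SOCS1, chosen for this comparison after its values had been seen, rose by 2.83 in promyelocytes and had a value of -0.04 in granulocytes (interaction adjusted p = 6.22e-08). VCAM1, EBI3 and TNFAIP6 rose in both forms, and their interactions were not past the threshold (adjusted p = 0.645, 0.315 and 0.490), with standard errors of 0.660, 0.921 and 0.896 on the log2 scale.

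**Figure D5:**
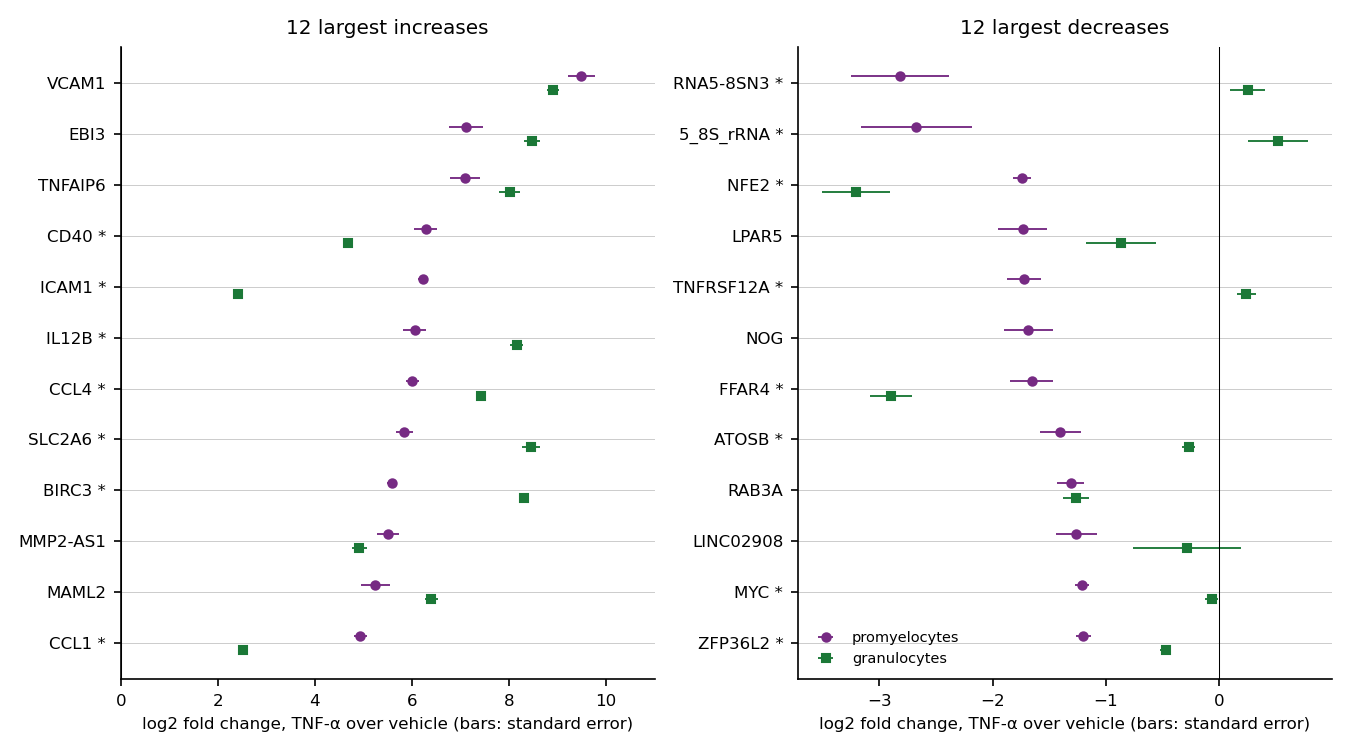
Log2 fold changes of TNF-α over vehicle in promyelocytes (circles) and granulocytes (squares) for the 12 largest increases and 12 largest decreases in promyelocytes, with bars for the standard error and a star where the interaction adjusted p is under 0.05. NOG has no granulocyte value, and ICAM1 and CCL1 stand furthest to the right of their granulocyte value. CD40, IL12B and SLC2A6 needed the TNF-α libraries to pass the promyelocyte filter, so their stars are descriptions.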

How the data were processed

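Total RNA of HL-60/S4 cells was depleted of ribosomal RNA and sequenced as paired ends. The authors aligned the reads to hg38 with STAR 2.5.3a and counted read pairs per GENCODE 27 gene with featureCounts 1.5.2, on the reverse strand and with primary alignments only. They deposited raw counts, without normalization, for 58288 genes. Symbols came from GENCODE 44, and 756 identifiers had none. Groups came from the sample titles. The 6 promyelocyte libraries were fitted with edgeR 4.0.16 in R 4.3.3 (TMM, filterByExpr with a minimum count of 10 and a minimum total of 15, quasi-likelihood test, Benjamini-Hochberg threshold 0.05, prior count 0.125). The authors' own processing notes also name DESeq2 1.16.1; here DESeq2 1.42.0 was an alternative. Interactions with granulocytes were tested in 1 fit of the 12 libraries. Other alternatives were DESeq2's size factors, no filter, a replicate block, all 12 libraries for the contrast, removal of GC and length trends, the threshold 0.01, and fits without 1 library. The procedure was tested on simulated counts. Genes were named by rule: in each list, up to 6 called genes of largest change in each direction, or, where fewer than 3 were called, the 3 of highest CPM; the 12 largest increases and decreases without overlap of the groups and with a mean log2 CPM no lower than 1; the 6 called genes of highest CPM in each direction; and the 5 largest noncoding changes in each direction. The 51 lists, 7 of them defined by symbol patterns, and the members were chosen with earlier results of these data known. Of the listed symbols 4 were not matched. Replicates were separate flasks. Results for a few genes are not reported here.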

Additional observations from a re-analysis of the deposited data

Results flagged for a closer look

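Among the 12 largest increases and 12 largest decreases, 15 genes had a response that differed between promyelocytes and granulocytes in the test of the interaction, in edgeR's quasi-likelihood fit of 12 libraries. Differences are given as the log2 fold change in promyelocytes minus that in granulocytes, and cell form and experiment cannot be told apart. The genes were picked for extreme fold changes in promyelocytes, and those same values enter the difference.

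The rise was larger in promyelocytes for CD40 (difference 1.56, adjusted p = 0.000972), ICAM1 (3.78, adjusted p = 6.40e-17) and CCL1 (2.39, adjusted p = 6.53e-12). It was smaller in promyelocytes for IL12B (-2.15, adjusted p = 0.00561), CCL4 (-1.45, adjusted p = 3.06e-05), SLC2A6 (-2.65, adjusted p = 0.000343) and BIRC3 (-2.77, adjusted p = 6.64e-11). CD40 and IL12B passed the promyelocyte filter only through the TNF-α libraries, and SLC2A6 also needed them. Their differences are therefore descriptions, from vehicle values near the floor.

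Among the decreases, NFE2 (difference 1.43, adjusted p = 0.000326) and FFAR4 (1.21, adjusted p = 0.00228) fell less in promyelocytes. MYC (-1.18, adjusted p = 2.05e-10), ATOSB (-1.17, adjusted p = 7.04e-07) and ZFP36L2 (-0.76, adjusted p = 4.34e-08) had the lower value in promyelocytes. For TNFRSF12A (-1.99, adjusted p = 9.76e-10) the fold changes had opposite signs, -1.72 in promyelocytes and 0.24 in granulocytes. The signs also differed for RNA5-8SN3 (-3.12, adjusted p = 0.000203) and 5_8S_rRNA (-3.23, adjusted p = 0.000700), whose vehicle libraries spread widely. Their granulocyte values, 0.25 and 0.51, were not called (edgeR quasi-likelihood test, adjusted p = 0.198 and 0.108), so no rise in granulocytes was shown.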

How the results depend on the processing

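With a threshold of 0.01 the increases numbered 864 and the decreases 574. Fits without 1 library gave 945 to 1315 increases and 653 to 1160 decreases, lowest without vehicle replicate 2 (653) and TNF-α replicate 2 (667). A fit that leaves 2 libraries in a group rests on a spread from few samples. With all 12 libraries in 1 fit 1378 were increased and 1578 decreased, so 46.6% of calls were increases, against 55.1% as reported, and decreases outnumbered increases. DESeq2's size factors, no filter, DESeq2, that fit and removal of the GC and length trends kept both counts within 1.5 times their reported values. A replicate block in the fit left 1012 increases and 821 decreases. Deviations of same-numbered libraries correlated at -0.293, -0.157 and -0.234, and those of the other pairs at -0.131 to 0.320. The numbers showed no sign of pairing the samples. So few values, from deviations tied to each other within a group, cannot exclude it. Of the 1138 interactions, 974 were called with the block and 881 at 0.01. Of 294 called genes named by rule, 0 changed sign and 217 were called in all 13 alternatives. Depth limits the genes under the filter, 12788 of which had reads.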

Other observations

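Notch genes had 3 of 12 tested members increased and 2 decreased. LFNG, which modifies Notch receptors, stood at 9.52, 8.72 and 9.82 CPM with vehicle and at 19.7, 20.1 and 22.1 with TNF-α, and the receptor NOTCH2 rose from 238 ± 5.5 to 329 ± 33.7 CPM (SD, n = 3). The ligand JAG1 fell from 16.4 ± 0.407 to 9.59 ± 0.437 CPM. Of 18 Wnt genes 2 were increased and 2 decreased, 11.1% each, against 8.15% and 6.65% over all genes tested. The ligand WNT10B rose from 4.82 ± 0.621 to 11.2 ± 1.23 CPM and the receptor FZD2 fell from 1.37 ± 0.245 to 0.572 ± 0.0406.

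F3, tissue factor, the initiator of coagulation, was at 1.25, 1.39 and 1.42 CPM with vehicle and at 8.06, 8.62 and 8.48 with TNF-α (log2 fold change 2.63), and 2 of 9 genes of the coagulation and plasminogen list were increased (1 without vehicle replicate 2) and 1 decreased (called without TNF-α replicate 2 but in no other fit without 1 library). Of 8 enzymes of prostaglandin and leukotriene synthesis 2 rose, PTGS1 (33.6 ± 1.38 to 47.8 ± 2.40 CPM) and ALOX5AP (7.36 ± 0.761 to 11.2 ± 0.207). Histone methyltransferases and demethylases had 6 of 32 increased and 6 decreased (3 increased without vehicle replicate 2 or TNF-α replicate 1, 10 decreased without TNF-α replicate 3). The H3K27 demethylase KDM6B rose by 0.48 and the H3K79 methyltransferase DOT1L by 0.42 on the log2 scale, while KDM5B, an H3K4 demethylase, fell from 137 ± 7.02 to 101 ± 1.77 CPM.

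ENSG00000112096.16 lies outside the naming rule and was chosen after its values had been seen. It had no symbol in the annotation used here and spans the annotated position of SOD2. It rose from 188 ± 7.66 to 321 ± 12.5 CPM (log2 fold change 0.77, adjusted p = 4.43e-09). COL1A1, a stromal marker, had 0 to 3 counts in each vehicle library and 11 to 24 in each TNF-α library, a ratio of 12.8 with an exact 95% counting interval of 4.69 to 48.7; it passed the filter only through the TNF-α libraries, so the ratio is a description.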
